A study of Mus musculus with 8 samples.

Results

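In embryonic ventricles that had lost Rps19bp1 in cardiomyocytes, 10 genes of DNA repair and genome stability linked to the tumour suppressor p53 were followed. They are Zfp365, Mgmt, Ddb2, Xpc, Polk, Rrm2b, Ercc5, Gadd45a, Gadd45b and Gadd45g. Members were found by symbol on the primary chromosomes, which gave 10 rows of the 52778 in the expression table, 1 for each gene. The study sequenced RNA from mouse (Mus musculus) ventricular heart tissue at embryonic day 11.5, in 4 libraries of conditional knockout embryos (cKO) and 4 of control embryos. The cKO embryos carried Rps19bp1 fl/fl and 1 copy of Xmlc2-Cre (Xmlc2-Cre +/−), a Cre recombinase driven in cardiomyocytes, so the other cells of the ventricle were not targeted. Whether control embryos carried the floxed alleles or Cre is not given in the sources used here. The genotype label reads C57BL/6 WT for all 8 libraries, no drug was given to any embryo, and the extraction text speaks of cortical neurons and depletion of ribosomal RNA where the series text speaks of ventricle and a stranded mRNA kit. All libraries carry the same batch label.

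When DNA is damaged, or when ribosome assembly in the nucleolus is disturbed, p53 is stabilised and switches on genes for cell cycle arrest, cell death and repair. The genes followed here encode proteins with separate tasks. Xpc and the Ddb2 subunit of the damage-binding complex find distorted DNA, Ercc5 cuts beside the lesion in nucleotide excision repair, Polk copies across lesions, Mgmt takes alkyl groups off guanine, and Rrm2b is the damage-inducible small subunit of ribonucleotide reductase, which makes deoxynucleotides. Gadd45 proteins are small stress-induced partners of PCNA, Cdk1 and the kinase Map3k4, and Zfp365 is a zinc finger protein whose human ortholog has been linked to genome stability under p53.

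The libraries were first checked against their labels. Values are TPM, a unit that corrects for transcript length and sums to the same total in each library, so the depth behind a value is unknown. Rps19bp1 stood at 40.9, 44.2, 34.7 and 40.05 TPM in control libraries 1 to 4 and at 15.2, 11.8, 13.7 and 19.2 TPM in cKO libraries 1 to 4, which is 37.5% of the control mean. All 12 neuronal markers together summed to between 7.46 and 17.4 TPM in the 8 libraries, with Neurod1 listed at 0 in each. The 16 cardiomyocyte markers summed to 54150 to 59090 TPM in control and 52871 to 56004 TPM in cKO libraries. By the test below, 13 of them had a difference under 0 and 3 above it, and 1 was called lower in cKO. That count was 0 without cKO replicates 1, 2 or 3 or without any 1 control replicate. Mitochondrial transcripts made up 11.4% to 12.2% of TPM in control and 13.2% to 16.2% in cKO libraries. Markers of other cell types also moved with the groups: 10 epicardial markers summed to 401 to 462 TPM in control and 472 to 578 TPM in cKO libraries, and 10 mesenchymal markers to 1825 to 2166 and 2300.2 to 2642 TPM. Of these lists 6 of 10 and 4 of 10 genes were higher in cKO by the test below, with none at 0, and their part in the results was not tested. The epicardial count was 3 without cKO replicates 1 or 3 or control replicates 2 or 4, and 2 without control replicate 1. Endothelial markers summed to 768 to 819.6 and 824.5 to 932 TPM, macrophage markers to 72.9 to 100.4 and 77.3 to 128 TPM, and erythroid markers to 1793 to 6573 and 1624 to 3498 TPM, with 0 of their genes called by limma. Without cKO replicate 4, 3 macrophage markers were called higher.

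All 10 genes had a mean of at least 1 TPM over the 8 libraries and were tested. Zfp365, Mgmt, Ercc5 and Polk rose in cKO ventricles, by 5.17-fold, 1.95-fold, 1.52-fold and 1.55-fold in mean TPM, and none of the 10 fell. Gadd45a was higher in every cKO library than in any control library without passing the adjusted threshold. The other 5 genes, Gadd45b, Gadd45g, Rrm2b, Ddb2 and Xpc, overlapped between the groups. Tests were made with limma on log2(TPM + 1) with Benjamini-Hochberg adjustment over all 15541 tested rows, and a gene is called when its adjusted p is under 0.05. Over all tested rows 6.40% were called, 2.16% as higher and 4.23% as lower, against 4 of 10 genes called higher and 0 called lower here. The groups did not overlap in 15.6% of all tested rows, higher in cKO in 5.33% and lower in 10.3%, and in 5 of the 10 genes, all of them higher. The 10 genes were chosen with earlier results of these data known, so these shares are a description only. The same 4 genes were called after each library was rescaled without mitochondrial and globin rows. In a bulk sample, fewer cells of one type and less RNA per cell cannot be told apart. Nothing in the labels says whether libraries of a group came from separate embryos or litters beyond calling them biological replicates, so p-values measure the spread between these samples.

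**Figure D1:**
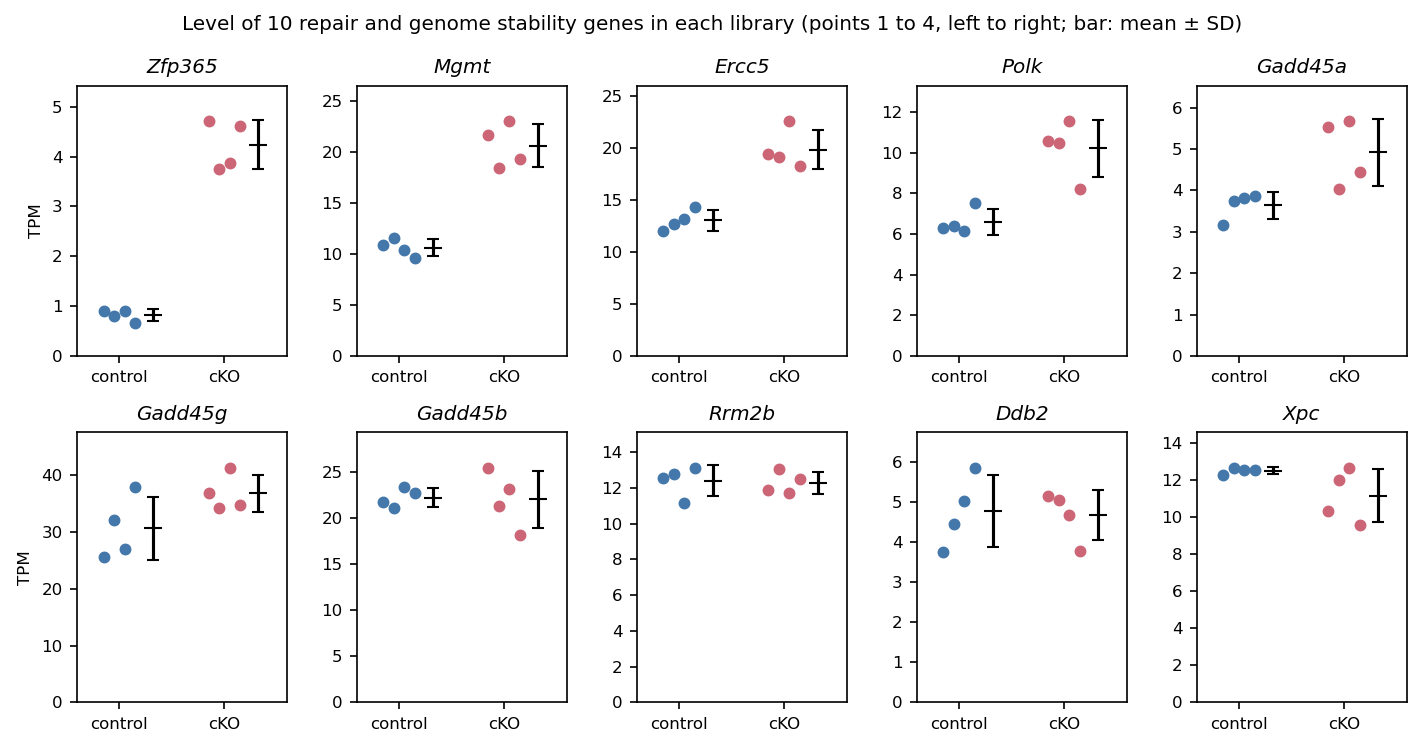
TPM of each of the 10 genes (vertical axes, from 0) in the 4 control (blue) and 4 cKO (red) libraries, with the mean and SD beside the points. Zfp365, Mgmt, Ercc5, Polk and Gadd45a are higher in all cKO than in all control libraries, and the other 5 genes overlap.

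Zfp365 (chr10:67886105-67912662, minus strand, GRCm38) had the largest fold change in mean TPM of the 10. It was barely expressed in control ventricles, at 0.904, 0.806, 0.908 and 0.664 TPM in libraries 1 to 4, and stood at 4.71, 3.75, 3.88 and 4.62 TPM in cKO libraries 1 to 4. No control library reached 1 TPM and no cKO library lay below 3.75 TPM. The means were 0.820 ± 0.114 TPM (SD, n = 4) and 4.24 ± 0.494 TPM (SD, n = 4), and the log2 difference was 1.52 (SE 0.105, limma adjusted p = 6.75e-05). That difference ranked 9 from the top among the 15541 tested rows. Because the control level lies below the pseudocount of 1, the size on this scale depends on it: the difference was 2.24 with a pseudocount of 0.1 and 0.67 with one of 5, and the gene was called with each. With a pseudocount of 5, Mgmt had the larger difference (0.71). No other row of the table overlaps Zfp365.

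The promoter of Zfp365 is shown because this gene had the largest fold change in mean TPM. Among the member windows that could be searched, its window was also the only one to hold paired copies of the p53 decamer. In RefSeq windows on GRCm38.p6 that run from 250 bases before to 50 bases after a transcription start, the p53 consensus decamer was searched on both strands, which are equivalent because it is palindromic. The stretch below lies on the minus strand at chr10:67912702-67912751, upstream of the start, and reads 5′ to 3′ with bases of the decamers in capitals.
Zfp365: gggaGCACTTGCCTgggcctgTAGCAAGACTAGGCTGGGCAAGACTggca
Its 4 decamers begin 85, 68, 63 and 53 bases before the start and carry 1, 2, 1 and 1 mismatches to the consensus. Those at 68 and 63 bases overlap, and those at 63 and 53 bases lie next to each other with no spacer. A pair of decamers with the central 4 bases kept in each, up to 13 bases between them and up to 3 mismatches in all was found in 6.72% of 32851 windows, and with up to 2 mismatches in 2.12%. A match of letters is a description of this window and not a measured binding site.

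Exact single decamers stood in 2 of the 9 windows of the members (22.2%), neither of them that of Zfp365, against 8.36% of all windows. In Gadd45a the decamer lies 40 bases before the start, at chr6:67037428-67037457 with its flanks on the minus strand. In Polk it lies 231 bases before a second, internal start, at chr13:96519399-96519428 with its flanks on the minus strand. Capitals mark the decamer in both.
Gadd45a: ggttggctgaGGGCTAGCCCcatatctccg
Polk: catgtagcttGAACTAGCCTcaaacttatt
The windows of Mgmt, Ercc5, Gadd45b and Gadd45g and the main start of Polk held neither an exact decamer nor such a pair. Of the 10 genes, 7 have an entry in the promoter table. The window of Ercc5 lies at a start inside the span of the gene. Ddb2, Xpc and Rrm2b were not searched. Bases outside the windows were not searched either, so p53 sites there, in introns for instance, would be missed.

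Mgmt (chr7:136894463-137128193, plus strand), the methyltransferase that repairs alkylated guanine in a single step and is used up by doing so, about doubled. Control libraries 1 to 4 held 10.9, 11.6, 10.3 and 9.60 TPM and cKO libraries 1 to 4 held 21.6, 18.4, 23.01 and 19.3 TPM. The lowest cKO library stood well above the highest control library. Means were 10.6 ± 0.827 TPM (SD, n = 4) in control and 20.6 ± 2.10 TPM (SD, n = 4) in cKO, with a log2 difference of 0.90 (SE 0.0820, limma adjusted p = 0.000505). Mgmt overlaps only Gm39108 on the opposite strand, a row at a mean of 0 TPM in both groups. Of 23 other measured genes of direct reversal and base excision repair, 0 were called higher and 2 lower, beside 2.16% and 4.23% of all tested rows.

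Ercc5, Xpc and Ddb2 work in nucleotide excision repair, and they did not move together. Ercc5 (chr1:44146948-44181260, plus strand), the endonuclease that makes the cut on the 3′ side of a lesion, stood at 11.97, 12.7, 13.1 and 14.4 TPM in control libraries 1 to 4 and at 19.4, 19.2, 22.6 and 18.3 TPM in cKO libraries 1 to 4. All cKO libraries were above all control libraries. The mean of Ercc5 was 13.04 ± 1.01 TPM in control and 19.9 ± 1.88 TPM in cKO ventricles (SD, n = 4), and the log2 difference was 0.57 (SE 0.0779, limma adjusted p = 0.00464).

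Xpc (chr6:91489305-91515888, minus strand), which senses helix distortion in the genome at large, lay within 12.2, 12.6, 12.5 and 12.5 TPM in control libraries 1 to 4. In cKO libraries 1 to 4 it was 10.3, 11.99, 12.6 and 9.57 TPM, so that cKO library 3 lay within the control range and the other 3 lay below it. Its coefficient of variation was 1.40% in control and 12.8% in cKO. The log2 difference was -0.16 with a 95% confidence interval from -0.34 to 0.02 (limma adjusted p = 0.275). Ddb2 (chr2:91211545-91237132, minus strand), which binds ultraviolet damage, ranged from 3.75 to 5.85 TPM in control and from 3.79 to 5.14 TPM in cKO libraries, so the groups covered each other. Its log2 difference was -0.02 with an interval from -0.30 to 0.26 (limma adjusted p = 0.945), and it overlaps Acp2 on the opposite strand by 2554 bp, a gene at 22.3 TPM in control and 23.2 TPM in cKO. Whether reads were counted by strand is not given in the sources used here, so reads of genes that overlap on opposite strands may not have been told apart. Xpc overlaps Gm52912 on the opposite strand by 8898 bp, a row at 0.437 TPM in control and 0.379 TPM in cKO. The intervals of Xpc and Ddb2 lay below that of Ercc5, which ran from 0.40 to 0.74. They measure the spread between libraries and take no account of reads from overlapping rows.

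Polk (chr13:96480687-96542579, minus strand), a DNA polymerase that copies past bulky adducts with low fidelity, rose as well. It stood at 6.29, 6.38, 6.13 and 7.52 TPM in control libraries 1 to 4 and at 10.6, 10.5, 11.6 and 8.24 TPM in cKO libraries 1 to 4. The gap between groups was narrow, with cKO library 4 just above control library 4. Means were 6.58 ± 0.636 and 10.2 ± 1.40 TPM (SD, n = 4), and the log2 difference was 0.56 (SE 0.102, limma adjusted p = 0.0150). Without a filter on low values, where 32491 rows were tested, Polk had the same difference and missed the threshold (limma adjusted p = 0.0603).

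Rrm2b (chr15:37923952-37961119, minus strand), the p53-inducible small subunit of ribonucleotide reductase, did not follow these genes. Control libraries 1 to 4 held 12.5, 12.8, 11.2 and 13.1 TPM and cKO libraries 1 to 4 held 11.9, 13.03, 11.7 and 12.5 TPM. The groups overlapped fully, with a log2 difference of -0.01 and a 95% confidence interval from -0.16 to 0.14 (limma adjusted p = 0.935). The table also lists Gm3362 inside Rrm2b on the same strand at 30.3 TPM in control and 36.6 TPM in cKO, so reads of Rrm2b may have been counted elsewhere and its level is less certain. The replicative subunits, by contrast, were lower in cKO. Rrm2, the small subunit used in S phase, fell from 193 ± 8.15 to 138 ± 10.3 TPM (SD, n = 4, log2 difference -0.49, limma adjusted p = 0.00282), and Rrm1, the large subunit, fell from 143 ± 4.43 to 113 ± 9.63 TPM (SD, n = 4, log2 difference -0.34, limma adjusted p = 0.0148).

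The Gadd45 genes differed in level and in change. Gadd45a (chr6:67035096-67037407, minus strand), the family member with the best-known p53 control, was the lowest, at 3.16, 3.74, 3.80 and 3.86 TPM in control libraries 1 to 4 and at 5.54, 4.03, 5.67 and 4.43 TPM in cKO libraries 1 to 4. The groups did not overlap, although cKO library 2 lay close to the controls. The means were 3.64 ± 0.324 and 4.92 ± 0.810 TPM (SD, n = 4), with a log2 difference of 0.34, a 95% confidence interval from 0.10 to 0.59, an unadjusted p of 0.0107 and a limma adjusted p = 0.0950. Gadd45a overlaps E230016M11Rik on the opposite strand, a row at 0.780 TPM in control and 1.13 TPM in cKO.

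Gadd45g (chr13:51846675-51848475, plus strand), known from differentiation and growth arrest, was the most abundant of all 10 genes. Its control libraries 1 to 4 spread over 25.5, 32.04, 27.0 and 37.9 TPM, while cKO libraries 1 to 4 held 36.8, 34.2, 41.3 and 34.8 TPM. Control library 4 lay among the cKO values. The log2 difference was 0.27 with a 95% confidence interval from 0.02 to 0.52, an unadjusted p of 0.0394 and a limma adjusted p = 0.186. Gadd45b (chr10:80930091-80932204, plus strand), a member induced by cytokine and NF-κB signalling, held 21.7, 21.02, 23.3 and 22.7 TPM in control and 25.4, 21.3, 23.1 and 18.2 TPM in cKO libraries 1 to 4. Its cKO values lay on both sides of the controls (log2 difference -0.02, interval from -0.22 to 0.18, limma adjusted p = 0.917). Together the family summed to 56.5 ± 5.94 TPM in control and 63.7 ± 6.16 TPM in cKO (SD, n = 4, exact two-sided permutation p = 0.143). Gadd45a supplied 6.46% ± 0.447 of that sum in control and 7.69% ± 0.641 in cKO (SD, n = 4, exact two-sided permutation p = 0.0571).

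**Figure D2:**
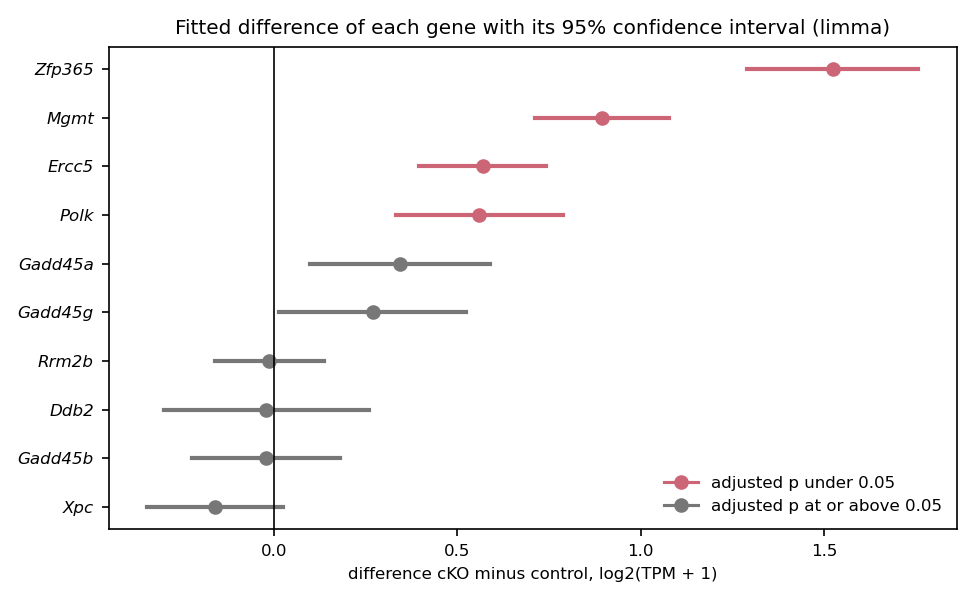
Fitted difference between cKO and control on the log2(TPM + 1) scale (horizontal axis) for each of the 10 genes, with its 95% confidence interval. Zfp365 (1.52), Mgmt (0.90), Ercc5 (0.57) and Polk (0.56) passed the threshold, and the intervals of Rrm2b, Ddb2, Gadd45b and Xpc span 0.

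The order of the genes by level differed between the groups. In control ventricles Gadd45g and Gadd45b stood first, and neither overlapped with the gene below it. Ercc5, Xpc, Rrm2b and Mgmt followed at 13.04 to 10.6 TPM on average, each overlapping with the next. Polk, then Ddb2 and Gadd45a (overlapping), and last Zfp365 came after them. In cKO ventricles Mgmt (20.6 TPM) and Ercc5 (19.9 TPM) overlapped with each other, and Mgmt overlapped with Gadd45b (21.99 TPM) above it. Rrm2b and Xpc, which Mgmt did not exceed in control, lay below both of them. Zfp365 remained the lowest on average, but its range of 3.75 to 4.71 TPM overlapped with that of Ddb2.

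Each of 6 genes was then set beside a partner protein or paralog as a ratio of (TPM + 1) within each library. The log2 ratio of Polk to Polh, the polymerase that bypasses ultraviolet lesions, ran from -1.22 to -0.88 in control and from -0.61 to -0.14 in cKO libraries. Ercc5 to Ercc4, a subunit of the nuclease that cuts on the 5′ side, ran from 1.12 to 1.40 and from 1.63 to 1.96. Rrm2b to Rrm2 ran from -4.01 to -3.73 and from -3.48 to -3.28. In these 3 pairs the groups did not overlap, and the ratio was higher in cKO by 0.65, 0.55 and 0.47 (exact two-sided permutation p = 0.0286 each, the smallest value that 4 against 4 libraries allow, and 0.0571 adjusted over the 6 pairs).

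The remaining 3 ratios overlapped between the groups. Ddb2 to Ddb1, its partner in the damage-binding complex, had a difference of 0.01, Xpc to Rad23b, which stabilises it, of -0.03, and Gadd45a to Gadd45g of 0.07. Their exact two-sided permutation p-values, adjusted over the 6 pairs, were 0.971, 0.971 and 0.771. The partners in these and the other pairs were not called, except Rrm2, which fell. Ddb1 stood at 361 ± 14.5 and 354 ± 13.3 TPM, Rad23b at 141 ± 4.08 and 129 ± 9.34 TPM, Polh at 15.05 ± 0.800 and 14.1 ± 1.34 TPM, and Ercc4 at 4.93 ± 0.438 and 4.98 ± 0.197 TPM in control and cKO (SD, n = 4, limma adjusted p = 0.753, 0.193, 0.502 and 0.930). Cetn2, another subunit of the Xpc complex, had a log2 difference of -0.10, Xpa, which verifies the damage, of -0.25, Poli, a paralog of Polk, of 0.02, and Map3k4, the kinase that Gadd45 proteins activate, of -0.13, with limma adjusted p between 0.178 and 0.911.

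**Figure D3:**
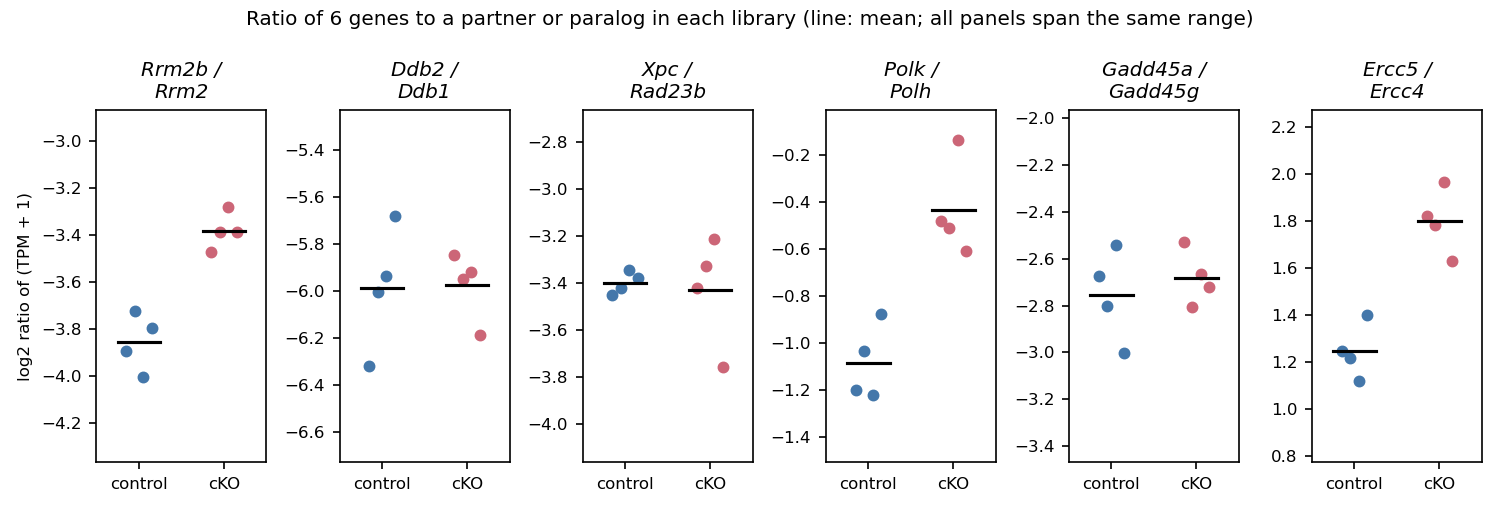
Log2 ratio of (TPM + 1) of 6 genes to a partner or paralog (vertical axes, each spanning the same range) in control (blue) and cKO (red) libraries, with group means as lines. The ratios of Rrm2b to Rrm2, Polk to Polh and Ercc5 to Ercc4 are higher in every cKO library, and the other 3 ratios overlap.

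Other genes of the repair machinery were then counted. Lists of nucleotide excision repair, translesion synthesis, ribonucleotide reductase and dNTP control, direct reversal and base excision repair, and mismatch repair hold 81 other genes, all tested. Of these, 1 was called higher and 13 lower in cKO, beside 2.16% called higher and 4.23% lower over all tested rows. Their median log2 difference was -0.09, beside -0.02 over all tested rows. The median of the 10 genes was 0.31. The lists, like the 10 genes, were chosen with earlier results of these data known, so counts and medians only describe them. The gene called higher was Rev1, a scaffold of translesion polymerases (17.3 ± 0.468 to 20.6 ± 0.842 TPM, SD, n = 4, log2 difference 0.24, limma adjusted p = 0.0295). Rev1 overlaps Eif5b on the opposite strand and stayed called among the leave-one-out fits only without cKO replicate 4; without any other single library its adjusted p lay between 0.0517 and 0.0806. Single libraries also set the size of the count. The number called was 7 and 8 without cKO replicates 1 and 3 and 5, 8, 5 and 9 without control replicates 1 to 4 in turn.

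The repair genes that fell include several that also serve DNA replication. Of 28 nucleotide excision repair genes outside the 10, 3 fell: Lig1, the ligase that seals replicated DNA (log2 difference -0.34, limma adjusted p = 0.00949), and Rpa1 (-0.35) and Rpa2 (-0.30), subunits of the protein that coats single-stranded DNA. Rpa1 lost its call without control replicate 1 (limma adjusted p = 0.0503) and control replicate 3 (0.0516), and Rpa2 without cKO replicate 1 (0.0581) and control replicates 1, 2 and 3 (0.0742, 0.0687 and 0.0770). Of 13 translesion genes outside the 10, Usp1, which deubiquitinates PCNA, fell (-0.32, limma adjusted p = 0.0143), as did Polq (-0.30), whose call was lost without cKO replicates 1 and 3 and without control replicates 1, 3 and 4 (limma adjusted p from 0.0619 to 0.0706). Of 23 genes of direct reversal and base excision repair, 2 fell. Ung, which removes uracil from DNA, fell by 0.61 on the log2 scale (limma adjusted p = 0.00128), and it overlaps Alkbh2 on the opposite strand. Neil3, a glycosylase for oxidised bases, fell by 0.34 (limma adjusted p = 0.0415) and lost its call without each library other than cKO replicate 2 (0.0566 to 0.105). Of 9 further genes of dNTP control 4 fell, among them Rrm2 and Rrm1, and 2 were called without cKO replicate 1 and without control replicates 1, 2 or 3. Exo1, an exonuclease of mismatch repair, fell by 0.40 on the log2 scale (limma adjusted p = 0.0398). Its call was lost without each library other than cKO replicate 2 and control replicate 2 (limma adjusted p from 0.0511 to 0.102). Of 24 S-phase genes, which share Rrm1, Rrm2, Ung and Pcna with these lists, 19 fell and 0 rose (median -0.36), and 9 and 10 were called without control replicates 1 and 3. The S-phase genes summed to 1873 to 2025 TPM in control and to 1339 to 1602 TPM in cKO libraries, and their part in the fall of repair genes was not tested.

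**Figure D4:**
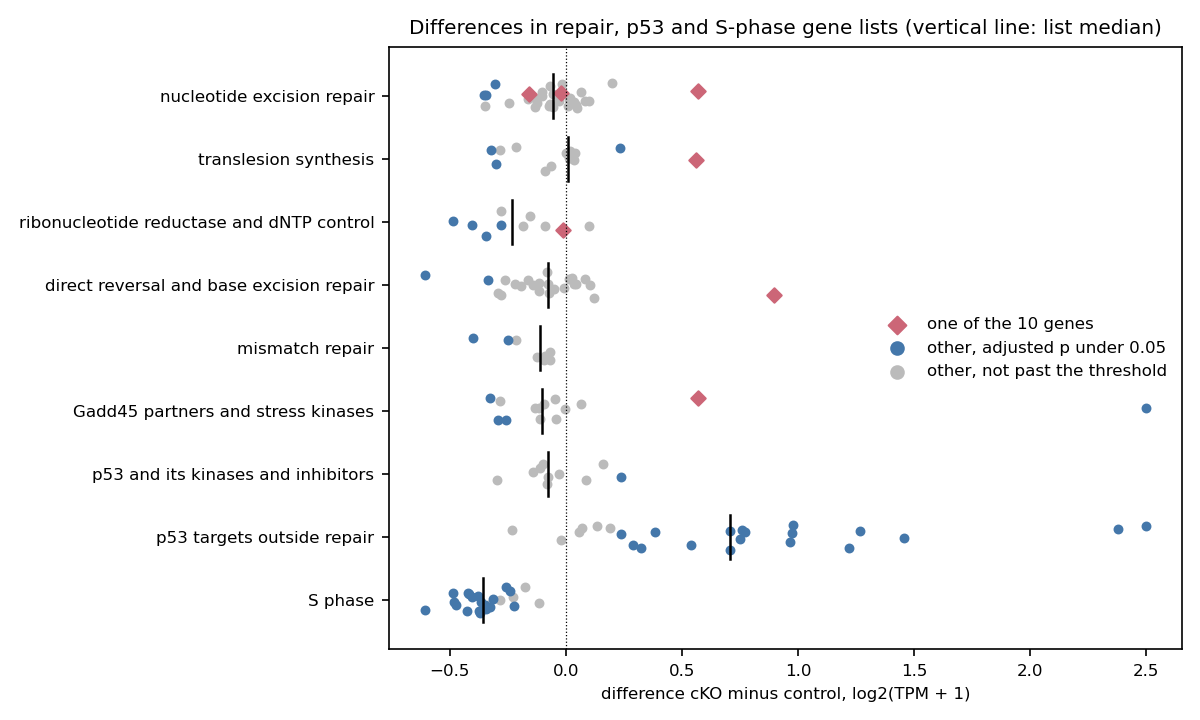
Log2(TPM + 1) difference between cKO and control (horizontal axis) of every tested gene in 9 lists, with the 10 genes as red diamonds, other called genes in blue, genes not called in grey and list medians as vertical lines. Zfp365 and the Gadd45 genes stand in none of the repair lists. Ercc5, Polk and Mgmt lie to the right of all other genes of their repair lists, and the S-phase genes lie left of 0.

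Targets of p53 outside repair gave the scale for these changes. Of 24 p53 targets outside repair, 18 rose and 0 fell, with a median log2 difference of 0.71. This list too was chosen with earlier results of these data known. Cdkn1a, the cell cycle inhibitor p21, rose from 29.9 ± 3.76 to 174 ± 27.03 TPM (SD, n = 4, log2 difference 2.50, limma adjusted p = 6.53e-06). Trp53inp1, an amplifier of p53 activity, rose by 1.46 on that scale and 2.89-fold in mean TPM, beside 1.52 and 5.17-fold for Zfp365, and the order turned with a pseudocount of 5 (1.24 and 0.67). Mgmt (0.90) lay above the median of that list and Ercc5 and Polk below it. Trp53 itself had a log2 difference of 0.16 (86.3 ± 7.47 and 96.4 ± 2.67 TPM, SD, n = 4, limma adjusted p = 0.145), and it was called without control replicate 4 (0.0491). Of 10 genes for p53, its kinases and its inhibitors only Mdm2, the ubiquitin ligase that p53 induces against itself, was called (log2 difference 0.24, limma adjusted p = 0.0154; 0.0511 without control replicate 3). Among 13 partners and stress kinases of the Gadd45 proteins, Cdkn1a was the 1 gene called higher and 3 fell, among them Cdk1 (-0.29), the mitotic kinase that Gadd45 proteins inhibit, and Map2k6 (-0.26), a kinase upstream of p38. The call of Cdk1 was lost without each control replicate (limma adjusted p from 0.0542 to 0.0747) and that of Map2k6 without each library other than control replicate 2 (0.0536 to 0.0782).

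Genes whose profile over the 8 libraries came closest to each riser were sought among tested genes on the primary chromosomes. The members and rows with symbols of predicted genes, cDNA clones, microRNAs or pseudogenes were left out. Closeness was the smallest root mean square difference in log2(TPM + 1) relative to the control mean. For Zfp365 the closest genes were Dcxr, a carbonyl reductase (0.159), and Trp53inp1 (0.162). Dcxr rose from 2.74 ± 0.157 to 9.85 ± 1.55 TPM (SD, n = 4, limma adjusted p = 5.81e-05). For Mgmt they were Pqlc3 (0.126) and Syt12 (0.140), both under 6 TPM on average in either group. For Ercc5 they were the imprinted noncoding RNA Meg3 (0.0845) and Igdcc4 (0.0867), and for Polk they were Meioc (0.0938) and Rps27l (0.102), a ribosomal protein paralog known as a p53 target, which lay between 172 and 202 TPM in control and between 243 and 289 TPM in cKO libraries (log2 difference 0.51, SE 0.0669, limma adjusted p = 0.00359). Meg3 and Syt12 overlap other rows of the table. Meioc lost its call without cKO replicates 1, 2 and 3 and without control replicates 1, 2 and 3 (limma adjusted p from 0.0628 to 0.0851). The measure follows the size of the group difference and says nothing of shared control.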

How the data were processed

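RNA of 4 cKO and 4 control libraries was compared. The deposited table holds TPM values the authors made; per the submitters' processing notes the tools were FastQC, Trim Galore 0.6.7, HISAT2 2.2.1, StringTie 2.2.1, featureCounts and DESeq2 on GRCm38, with no role given for each, and the use of strand in counting is not given in the sources used here. Rows name symbol, chromosome, strand, start and end, and all 10 members had the same coordinates in the RefSeq table of GRCm38.p6. Depth cannot be recovered from TPM, so precision is the spread between libraries.

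The fit used limma 3.58.1 under R 4.3.3 (group as the only term, trended eBayes, two-sided), on log2 values after adding 1 TPM, for rows with a mean of at least 1 TPM. The procedure was tested on simulated data. Fold changes on this scale understate those of low genes. Single values were tested by exact permutation over 70 assignments. The members and lists were chosen with earlier results of these data known. Named genes were the members, Rps19bp1, Trp53, fixed partners, the 3 smallest p-values of each repair or p53 list, and the 2 nearest profiles of each called member. Alternatives were 2 pseudocounts, 2 filters, 3 scalings, no trend, array weights, a replicate block and leaving out each library. Promoters came from RefSeq. A gene that the rule for named genes selects is not reported here.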

Additional observations from a re-analysis of the deposited data

Results flagged for a closer look

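In groups of 4 libraries, a value was singled out when its distance to the nearest other library, as a share of the group's range, exceeded Dixon's 95% critical value. Of 110 groups examined (49 named genes and 6 ratios, each in both groups) 3 held such a value, where chance gives about 1 in 20. Gadd45a stood at 3.16 TPM in control replicate 1, below the other control libraries, and the gap was 0.830 of the range. Pqlc3 stood at 3.61 TPM in control replicate 2, the highest of its group. Syt12 stood at 4.68 TPM in cKO replicate 3, the highest of its group.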

How the results depend on the processing

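Directions and calls of 9 of the 10 genes were the same under all alternatives that tested them (17 or 18 each), apart from sign changes around 0 of Ddb2, Rrm2b and Gadd45b, which were never called. Polk lost its call without a filter on low values and with the replicate block (limma adjusted p = 0.0603 and 0.0588). The number of the 10 called was 4 in every leave-one-out fit, and 3 without a filter, with a mean of at least 5 TPM (Zfp365 then not tested) and with the block. The number of all genes called was 994 as reported (336 higher and 658 lower), 347 without a filter, 609 without a trend and 420 with the replicate block. It ranged from 388 to 936 without single libraries: 400, 707, 420 and 936 without cKO replicates 1 to 4 and 388, 445, 412 and 565 without control replicates 1 to 4 in turn. Quantile normalization gave 383 higher and 380 lower, median-ratio scaling 368 and 469, and rescaling without mitochondrial and globin rows 388 and 396. Nothing in the labels says whether equal replicate numbers mark paired samples. Deviations of same-numbered libraries correlated at -0.0107, 0.0674, 0.0576 and -0.0891, and 2 of 4 cKO libraries correlated best with their own number. So few values cannot settle whether the samples were paired. Of 38 other named genes, 21 kept direction and call throughout, apart from sign changes around 0 of Ddb1, Poli and Ercc4. Ddb1, Poli and Ercc4 were not called in any setting. None of the 6 ratios had an adjusted p under 0.05 in any setting tried. For Rrm2b to Rrm2, Polk to Polh and Ercc5 to Ercc4 the adjusted exact permutation p was 0.0571 in each setting. That comes from the smallest p so few libraries allow, so these ratios could not go lower with only 3 of them at that floor.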

Other observations

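The 4 risers did not share one library of highest level. Mgmt, Ercc5 and Polk were highest in cKO library 3, Zfp365 in cKO library 1, and Ercc5 and Polk were lowest in cKO library 4. Cdkn1a was also highest in cKO library 3 (198 TPM) and lowest in cKO library 4 (137 TPM), and cKO library 4 held the most Rps19bp1 among cKO libraries (19.2 TPM). Zfp365 and Mgmt were instead lowest in cKO library 2 (3.75 and 18.4 TPM), which held the least Rps19bp1 (11.8 TPM). A link between these levels was not tested. The share of mitochondrial transcripts was highest in cKO library 3 (16.2%).

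Promoter windows of the members had a higher median CpG count than all windows, though not each of them lay above it. Over 9 windows of 7 members the median was 20 CpG and 61.3% GC, against 7 CpG and 52.7% GC over all windows. The main start of Polk had 25 CpG and its internal start 4, and the 2 windows of Mgmt had 20 and 3. Zfp365 had 8.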
